A study of Caenorhabditis elegans with 6 samples.

Results

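Splicing genes were followed by symbol across arrays of baicalein-, DMSO- and water-treated worms. A probe set (the group of short probes on the array that reads 1 transcript) was taken as a member where its symbol in a deposited table of compared genes began with *prp-*, *snr-*, *snrp-*, *sftb-*, *sfa-*, *uaf-*, *rsp-*, *rnp-*, *lsm-*, *mog-*, *skp-*, *hrp-*, *teg-* or *snu-*. This gave 16 probe sets for 16 genes, of 29317 probe sets in all. All 16 were named in the table of baicalein against DMSO, and 0 in that of DMSO against water. Among genes with a current RefSeq symbol, 67 carry such a prefix, 16 of them are the members, and 48 are named in neither table and were not analysed here. The table of baicalein against DMSO lists genes that passed the authors' threshold (p of at most 0.05) in an analysis of variance of this comparison. The methods give 3 independent samples for each group, while the deposited series holds 2 arrays a group, all of which were analysed here. On these arrays 14 of the 16 passed that threshold in such an analysis, all but *mog-5* and *mog-2*. The members were in effect chosen by that comparison. Their differences between baicalein and DMSO are therefore given as a description.

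Pre-mRNA splicing removes introns by a large complex, the spliceosome, that is rebuilt on each intron. It is made of small nuclear ribonucleoproteins (snRNPs), each a small nuclear RNA with a ring of Sm or LSm proteins and particle-specific proteins. The U1 and U2 particles mark the ends of the intron and its branch point, the U4/U6.U5 tri-snRNP then joins them, and RNA helicases drive the rearrangements, the 2 catalytic steps and the release of the product. In *C. elegans* many transcripts also receive a spliced leader from another RNA (trans-splicing). Several worm splicing factors were found as germline genes, since the *mog* genes are needed for the switch from sperm to oocytes and *teg-4* limits germline proliferation.

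The worms were the wild-type strain N2, taken whole, and 2 arrays were used for each of 3 groups, numbered as independent trials 1 and 2. One group received 100 µM baicalein (a plant flavone, given in DMSO according to the methods), another 0.4% DMSO as its vehicle control, and the third water. Treatment in liquid S medium began 16 to 18 h after hatching and lasted 48 h at 20 °C. All groups are labelled as young adults of 3 days, but stage markers set the water arrays apart. Only markers named in the deposited tables could be used. Those tables list genes that passed the authors' threshold, so differences between groups were favoured by the choice. Of 4 yolk and eggshell genes of adults named in the tables, all had higher values with DMSO than with water, with array medians of 8.33 and 8.51 in baicalein, 9.82 and 9.80 in DMSO, and 2.26 and 1.94 in water. Of 8 genes of the molting larva, 7 were lower with DMSO than with water, while *ptr-2* was higher (means of 6.53 and 5.17). The array medians of the 8 were 1.94 and 1.81 in baicalein, 1.55 and 1.49 in DMSO, and 6.01 and 6.03 in water. In every value set against water, the stage of those worms and the treatment therefore cannot be told apart.

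The values are on a log2 scale, so a difference of 1 is a 2-fold change. The median of all values on the 6 arrays, 1.51, served as a mark of little signal over background, and all 16 members lay above it on every array. Differences were tested with limma over all probe sets, with Benjamini-Hochberg adjustment, and an adjusted p under 0.05 was called. The number of arrays, 2 for each group, limits the precision. If the trials shared a culture, the spread behind each p is that of repeated measurement alone.

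Most of the 16 members were highest in DMSO-treated worms, and 11 of 16 did not pass the test between baicalein and water. Values lower with baicalein than with DMSO were favoured by the choice of the members. These are bulk samples, in which fewer cells of a type and less RNA per cell cannot be told apart. The group mean was highest with DMSO in 14 of 16 members, and highest with water in the other 2, *sfa-1* and *prp-8*. Since all 16 were lower with baicalein than with DMSO, this count repeats that of DMSO means over water means. DMSO lay over water in 16622 of all 29317 probe sets and 2436 of the 3619 entries of the table that named the members. The share highest with DMSO among the 3 groups was not computed over all probe sets. In baicalein-treated worms both arrays lay under both DMSO arrays for all 16 members (22.3% of all probe sets, and 2026 of the 3619 entries of the table that named them), with log2 differences of -2.24 to -0.43 and a median of -1.16, against medians of 0.05 over all probe sets and -0.43 over those entries. In DMSO-treated worms both arrays lay over both water arrays for 14 of 16 members (41.1% of all probe sets and 59.9% of the entries of that table). The median difference was 0.81, against 0.09 over all probe sets and 0.36 over those entries. The values for the entries pool both directions of baicalein against DMSO. Between baicalein and water the median was -0.25, against 0.07 over all probe sets, and its sign was positive with quantile normalization applied again (0.34) and after cyclic loess normalization (0.08).

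At the threshold of limma, 10 of 16 members were called lower with baicalein than with DMSO and 0 higher. The background was 7.03% lower and 1.73% higher over all probe sets, and 37.9% lower among the entries of the table that named the members. As the table rests on the same contrast, nothing is read from this count. It was 6 with quantile normalization applied again. Calls were also lost without either DMSO array or either water array. Without DMSO replicate 1 they were lost over all probe sets and not among the members alone, so nothing is read from that loss. The members' median was then -1.17, and -1.07 without DMSO replicate 2.

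For DMSO against water, 9 members rose, 1 fell and the remaining 6 stayed above the threshold. The background was 10.9% higher and 16.7% lower over all probe sets, and 38.6% higher and 13.9% lower among the entries of the table of baicalein against DMSO. The second is the nearer background, because the DMSO group stands both in that table and in this comparison, which favours high DMSO values among genes listed as lower with baicalein. It still pools both directions: 1498 of the 3619 entries had a positive difference between baicalein and DMSO, whereas all 16 members had a negative one. The share among entries lower with baicalein was not computed, so no excess is read from the 9 members. For baicalein against water, 2 members rose, 3 fell and 11 did not pass, where 6.79% of all probe sets were called higher and 15.4% lower, and 18.2% and 15.7% of the entries of that table. The shares of members called in this comparison thus lay near the background.

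**Figure D1:**
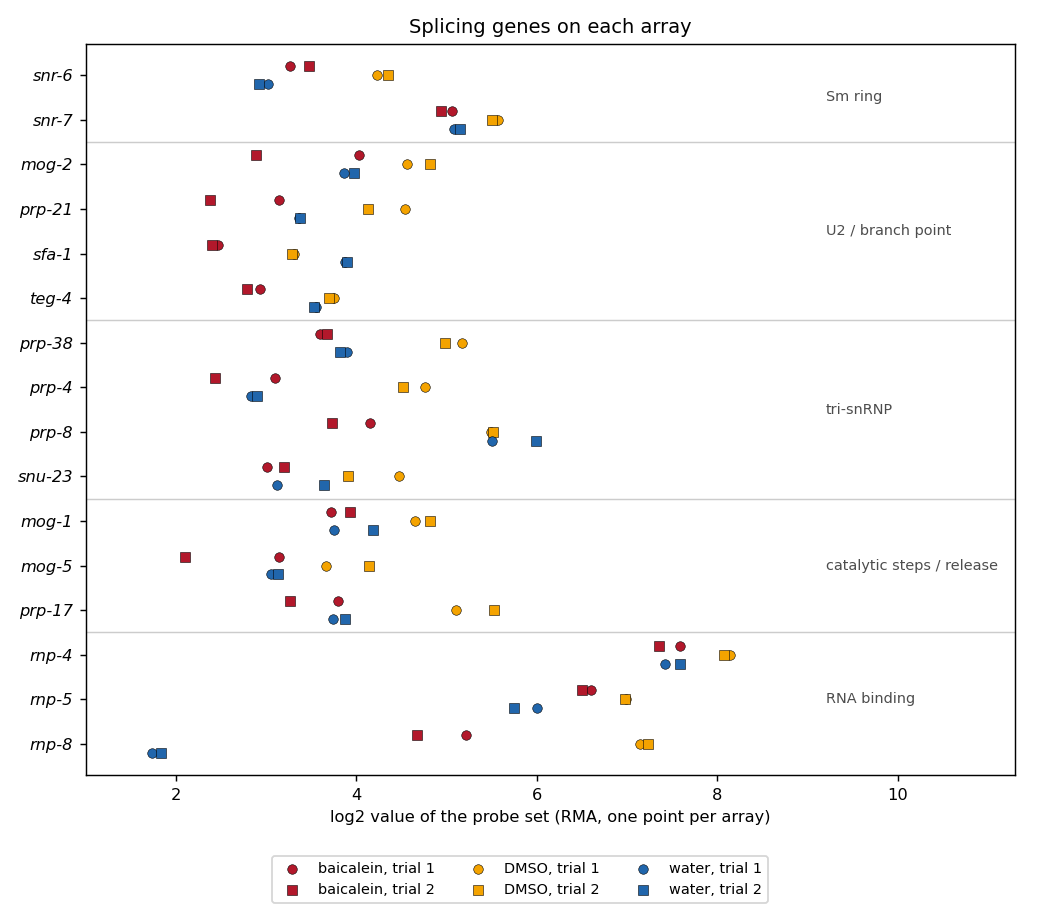
Log2 value of each of the 16 splicing genes (rows, grouped by role) on each array, with circles for trial 1 and squares for trial 2 of baicalein (red), DMSO (orange) and water (blue). The orange points lie farthest right in 14 of 16 rows, and *rnp-8* stands apart with water values of 1.74 and 1.83.

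The Sm ring is the heptameric protein ring that is loaded onto the small nuclear RNAs, and *snr-6* and *snr-7* encode its SmE and SmG subunits. *snr-6* had log2 values of 3.26 and 3.47 in baicalein-treated worms, 4.23 and 4.35 in DMSO-treated worms, and 3.02 and 2.92 in water-treated worms. *snr-7* had values of 5.06 and 4.93 with baicalein, 5.57 and 5.50 with DMSO, and 5.09 and 5.15 with water. The DMSO arrays were the highest for both genes, without overlap with either of the other groups. *snr-6* had a difference of -0.92 between baicalein and DMSO (standard error 0.17) and rose by 1.32 with DMSO over water (standard error 0.17, adjusted p = 0.00195 from limma). The corresponding values of *snr-7* were smaller, a log2 difference of -0.54 (standard error 0.16) and one of 0.42 (standard error 0.16), and the second did not pass the test (adjusted p = 0.107 from limma). Against water, the baicalein values differed by 0.40 for *snr-6* (95% interval -0.02 to 0.81) and by -0.12 for *snr-7* (95% interval -0.51 to 0.27), and neither passed (adjusted p = 0.151 and 0.604 from limma).

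Among the proteins that recognise the branch point, *sfa-1* had a course of its own. It encodes splicing factor 1, which binds the branch point before the U2 particle does. Its log2 values were 2.47 and 2.40 with baicalein, 3.31 and 3.28 with DMSO, and 3.87 and 3.89 with water. The 3 groups did not overlap, and their order was baicalein, DMSO and water from low to high. *sfa-1* fell by 0.58 with DMSO against water (standard error 0.16, adjusted p = 0.0355 from limma) and by 1.45 with baicalein against water (standard error 0.16, adjusted p = 0.00121 from limma), a 2.73-fold difference. The first call was lost without any single DMSO or water array (adjusted p = 0.106 to 0.181 from limma) and with arrays centred on their medians, while the second held without any single array (adjusted p = 0.00282 to 0.0172). Its difference between baicalein and DMSO was -0.86 (standard error 0.16).

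*prp-21* and *teg-4* encode proteins of the SF3a and SF3b parts of the U2 particle, and *mog-2* a further U2 protein, the worm A prime protein. *prp-21* had log2 values of 3.14 and 2.38 with baicalein, 4.54 and 4.13 with DMSO, and 3.36 and 3.38 with water. *teg-4* had values of 2.93 and 2.79 with baicalein, 3.75 and 3.70 with DMSO, and 3.55 and 3.53 with water. *mog-2* had values of 4.03 and 2.88 with baicalein, 4.57 and 4.82 with DMSO, and 3.86 and 3.97 with water. The baicalein arrays lay under the DMSO arrays for each of these genes, and for *mog-2* the baicalein arrays were 1.14 apart, the widest gap within a group among the members, and spanned the water values. The differences between baicalein and DMSO were -1.58 for *prp-21* (standard error 0.29), -0.87 for *teg-4* (standard error 0.16) and -1.24 for *mog-2* (standard error 0.36).

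Set against water, *prp-21* rose with DMSO by 0.96 (standard error 0.29, adjusted p = 0.0494 from limma), a call lost without any single DMSO or water array (adjusted p = 0.0899 to 0.221). *teg-4* did not pass with DMSO (0.19, adjusted p = 0.444 from limma), and it fell by 0.68 with baicalein (standard error 0.16, adjusted p = 0.0268 from limma). That call was lost without baicalein replicate 2, either DMSO array or either water array (adjusted p = 0.0508 to 0.151), and with quantile normalization applied again the difference was 0.01. The difference of *mog-2* between DMSO and water was 0.78 and did not pass (adjusted p = 0.171 from limma), but it passed without either baicalein array (adjusted p = 0.0156). Neither *prp-21* (-0.61, 95% interval -1.3 to 0.08) nor *mog-2* (-0.46, 95% interval -1.33 to 0.41) passed between baicalein and water. Without baicalein replicate 1 both did (adjusted p = 0.0249 and 0.0146 from limma).

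The U4/U6.U5 tri-snRNP was represented by *prp-8*, *prp-4*, *prp-38* and *snu-23*. *prp-8* encodes the large U5 protein at the catalytic centre of the spliceosome. Its log2 values were 4.15 and 3.73 with baicalein, 5.49 and 5.51 with DMSO, and 5.50 and 5.99 with water. It was low with baicalein alone, and the DMSO and water arrays overlapped. The difference was -1.56 between baicalein and DMSO (standard error 0.24) and -1.80 between baicalein and water (standard error 0.24, adjusted p = 0.00272 from limma), a 3.49-fold fall against water. This call held without any single array (adjusted p = 0.00321 to 0.0232), and was lost with the methods' analysis of variance after adjustment (adjusted p = 0.0613). Between DMSO and water the difference was -0.25 (95% interval -0.82 to 0.32, adjusted p = 0.487 from limma).

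*prp-4*, for a protein of the U4/U6 particle, had log2 values of 3.09 and 2.43 with baicalein, 4.76 and 4.52 with DMSO, and 2.83 and 2.90 with water. *prp-38*, for a factor of tri-snRNP activation, had values of 3.60 and 3.67 with baicalein, 5.17 and 4.98 with DMSO, and 3.89 and 3.82 with water. *snu-23*, for a zinc finger protein of the tri-snRNP, had values of 3.00 and 3.19 with baicalein, 4.47 and 3.90 with DMSO, and 3.12 and 3.63 with water. In each of these genes the DMSO arrays were the highest, and the baicalein arrays of *prp-4* and *snu-23* overlapped with the water arrays. *prp-4* had a difference between baicalein and DMSO of -1.88 (standard error 0.25), 3.67-fold, and *prp-38* and *snu-23* had differences of -1.44 (standard error 0.17) and -1.09 (standard error 0.27).

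With DMSO over water, *prp-4* rose by 1.77 (standard error 0.25, adjusted p = 0.00266 from limma) and *prp-38* by 1.22 (standard error 0.17, adjusted p = 0.00235 from limma), or 3.42-fold and 2.33-fold. Both calls held without any single array (adjusted p of up to 0.0292 and 0.0266 from limma), and that of *prp-4* was lost with the adjusted analysis of variance (adjusted p = 0.0583). For *snu-23* the difference was 0.81 (95% interval 0.16 to 1.46) and did not pass (adjusted p = 0.0704 from limma). Between baicalein and water none of these genes passed, with differences of -0.10 for *prp-4* (95% interval -0.71 to 0.50), -0.22 for *prp-38* (95% interval -0.63 to 0.18) and -0.28 for *snu-23* (95% interval -0.93 to 0.37). *prp-38* neighbours *plrg-1*, a further splicing gene, in the RefSeq order of protein-coding genes, and *plrg-1* had values of 3.39 and 3.4 with baicalein, 4.74 and 4.83 with DMSO, and 4.12 and 3.96 with water. The groups did not overlap for *plrg-1*, which rose by 0.75 with DMSO (adjusted p = 0.0165 from limma) and fell by 0.65 with baicalein (adjusted p = 0.0352 from limma), both against water.

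*mog-1* and *mog-5* encode the RNA helicases of the second step and of product release (Prp16 and Prp22 in yeast), and *prp-17* a factor of the second step. *mog-1* had log2 values of 3.72 and 3.93 with baicalein, 4.65 and 4.81 with DMSO, and 3.75 and 4.19 with water. *mog-5* had values of 3.15 and 2.10 with baicalein, 3.66 and 4.14 with DMSO, and 3.06 and 3.12 with water. *prp-17* had values of 3.80 and 3.27 with baicalein, 5.10 and 5.53 with DMSO, and 3.74 and 3.87 with water. The DMSO arrays of all 3 genes were above the others, and their baicalein and water arrays overlapped. The differences between baicalein and DMSO were -0.91 for *mog-1* (standard error 0.21), -1.27 for *mog-5* (standard error 0.36) and -1.78 for *prp-17* (standard error 0.25).

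*prp-17* rose 2.85-fold with DMSO over water, a log2 difference of 1.51 (standard error 0.25, adjusted p = 0.0048 from limma), and its call held without any single array (adjusted p of up to 0.0411) but not with the adjusted analysis of variance (adjusted p = 0.0711). *mog-1* rose by 0.76 (standard error 0.21, adjusted p = 0.0382 from limma). That call was lost without any single DMSO or water array (differences of 0.55 to 0.98). It was also lost with a variance trend, quantile normalization applied again and cyclic loess normalization (adjusted p = 0.0703, 0.0987 and 0.131 from limma). *mog-5* had a difference of 0.81 and did not pass (adjusted p = 0.151 from limma), but passed without either baicalein array (adjusted p = 0.0283). Against water, the baicalein values differed by -0.14 for *mog-1* (95% interval -0.65 to 0.37), -0.47 for *mog-5* (95% interval -1.32 to 0.39) and -0.27 for *prp-17* (95% interval -0.87 to 0.32), none of which passed. For *mog-5* the wide interval goes with the gap between its baicalein arrays, and without baicalein replicate 1 it passed (adjusted p = 0.0319 from limma).

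The remaining members encode RNA-binding proteins outside the snRNPs. *rnp-4* encodes Y14 of the exon junction complex, which marks spliced mRNA, and *rnp-5* the worm relative of RNPS1, a splicing activator that joins it. *rnp-4* had log2 values of 7.59 and 7.35 with baicalein, 8.14 and 8.08 with DMSO, and 7.42 and 7.59 with water. *rnp-5* had values of 6.6 and 6.50 with baicalein, 6.99 and 6.98 with DMSO, and 6.0 and 5.74 with water. The baicalein arrays of *rnp-5* lay between the other groups without overlap, whereas those of *rnp-4* overlapped with water. Their differences between baicalein and DMSO, -0.64 (standard error 0.18) and -0.43 (standard error 0.17), were with that of *snr-7* the smallest of the 16.

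With DMSO over water, *rnp-5* rose by 1.11 (standard error 0.17, adjusted p = 0.00394 from limma) and *rnp-4* by 0.60 (standard error 0.18, adjusted p = 0.0462 from limma). The call of *rnp-5* held without any single array (adjusted p of up to 0.0409), and that of *rnp-4* was lost without any single DMSO or water array (adjusted p = 0.128 to 0.25) and with the trial as a replicate block (adjusted p = 0.0738). *rnp-5* was also 0.68 higher with baicalein than with water (standard error 0.17, adjusted p = 0.035 from limma), a call lost without any 1 of the 6 arrays (adjusted p = 0.0518 to 0.231). For *rnp-4* the difference between baicalein and water was -0.03 (95% interval -0.46 to 0.39).

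*rnp-8* carries a prefix of the rule but is known as a partner of the cytoplasmic poly(A) polymerase GLD-2 that promotes oogenesis, and not as a part of the spliceosome. Its log2 values were 5.21 and 4.67 with baicalein, 7.14 and 7.23 with DMSO, and 1.74 and 1.83 with water. The 3 groups were far apart, and the baicalein arrays lay between the other groups. *rnp-8* rose 42.3-fold with DMSO over water, a log2 difference of 5.40 (standard error 0.22, adjusted p = 2.13e-05 from limma), and 66 of all probe sets had a higher difference in that comparison. With baicalein it was 8.94-fold higher than with water (log2 difference 3.16, standard error 0.22, adjusted p = 0.00018 from limma) and 4.73-fold lower than with DMSO (log2 difference -2.24, standard error 0.22). Both of its calls against water held without any single array (adjusted p of up to 0.00128 and 0.00375). Without *rnp-8*, the differences of the other 15 members between DMSO and water ran from -0.58 to 1.77, with a median of 0.81, and those between baicalein and water from -1.80 to 0.68.

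**Figure D2:**
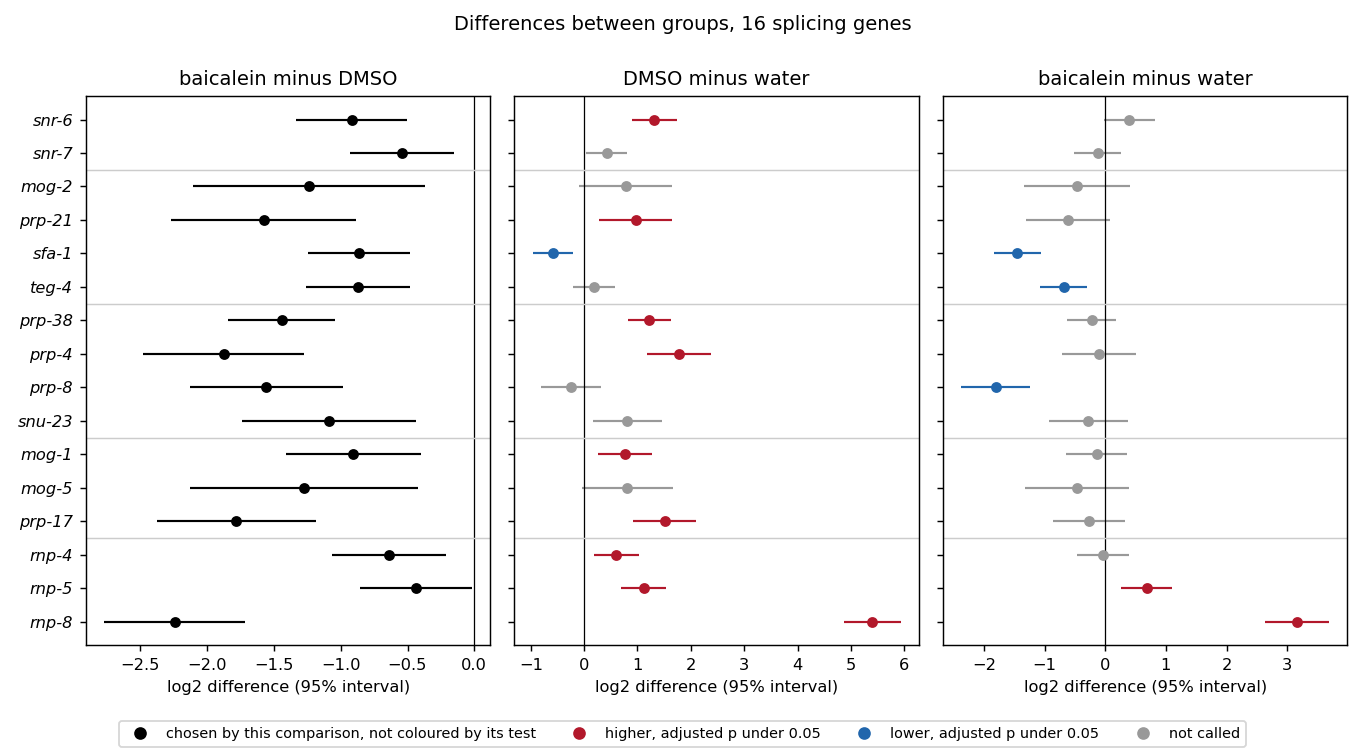
Log2 differences of the 16 splicing genes for baicalein minus DMSO, DMSO minus water and baicalein minus water, with 95% intervals from limma, red for called higher, blue for called lower and grey for not called at an adjusted p under 0.05. The left panel is black because the members were chosen by that comparison. In the middle panel *rnp-8* lies at 5.40 and *sfa-1* at -0.58, and in the right panel *prp-8* and *sfa-1* lie lowest at -1.80 and -1.45.

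In some members the arrays of a group lay farther apart with baicalein than with DMSO or water. The baicalein arrays were over 0.5 apart in 6 of 16 members, against 1 member for DMSO (*snu-23*) and 1 for water (*snu-23* again). The share of all probe sets with such a gap was not computed. Baicalein replicate 2 was the lower one in 12 of 16 members (75%). That share was 52.3% of all probe sets and 66.3% of the entries of the table that named the members. Over all probe sets, this array also had the highest median (1.59) and the lowest mean (2.23) of the 6. The upper quartiles of the 6 arrays ran from 2.46 to 3.26. The part of the gap between the baicalein arrays in the members' differences was not tested beyond the alternatives given. Within trial 1, the members' differences between baicalein and DMSO ran from -1.92 to -0.39 (median -0.95), and within trial 2 from -2.56 to -0.48 (median -1.11), all 16 negative in each. Between baicalein and water the medians were 0.01 within trial 1 and -0.46 within trial 2, with 8 and 13 of 16 negative.

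Other genes of splicing and small nuclear RNA production were taken from a wider list of 93, of which 32 were named in the deposited tables. The table of baicalein against DMSO named 31 of them, so low baicalein and high DMSO values were favoured by the choice of these 31. That of DMSO against water named *mec-8*, whose choice favoured a difference between DMSO and water. Nothing is read from these genes about the rest of the list. For DMSO against water 23 rose (background 10.9% of all probe sets, 38.6% of the entries of the table of baicalein against DMSO), 2 fell (16.7% and 13.9%) and 7 did not pass, with a median log2 difference of 1.15. The shares of those entries again pool both directions of baicalein against DMSO. For baicalein against water 1 rose (6.79% and 18.2%), 8 fell (15.4% and 15.7%) and 23 did not pass, and the median of -0.17 turned to 0.39 with quantile normalization applied again and to 0.13 after cyclic loess normalization. For baicalein against DMSO the median was -1.42, 27 were called lower (7.03% and 37.9%) and 0 higher, and all 32 differences were negative except for 2 with quantile normalization applied again or cyclic loess normalization.

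On this list, a pair of subunits of SNAPc, which starts transcription of small nuclear RNA genes, had the highest differences between DMSO and water. *snpc-1.2* had log2 values of 4.0 and 3.01 with baicalein, 5.52 and 5.08 with DMSO, and 2.06 and 1.79 with water. *snpc-1.1* had values of 3.69 and 2.93 with baicalein, 5.50 and 5.34 with DMSO, and 2.84 and 2.80 with water. *snpc-1.2* rose by 3.38 (standard error 0.35, adjusted p = 0.000698 from limma) and *snpc-1.1* by 2.60 (standard error 0.26, adjusted p = 0.000679 from limma), while *snpc-4* rose by 1.86, less than *cyn-10* (1.93) and *aly-2* (1.87). The other subunit named, *snpc-3.4*, rose by 1.22 (adjusted p = 0.0154 from limma). *snpc-1.2* was the gene of the list that rose with baicalein over water as well, by 1.58 (standard error 0.35, adjusted p = 0.0205 from limma).

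*smn-1*, for the survival motor neuron protein that loads the Sm ring, had log2 values of 4.68 and 4.51 with baicalein, 6.32 and 6.17 with DMSO, and 4.52 and 4.97 with water. *sna-1*, for a protein of the spliced leader particle, had values of 5.54 and 5.29 with baicalein, 6.53 and 6.59 with DMSO, and 4.77 and 4.99 with water. With DMSO over water *smn-1* rose by 1.5 and *sna-1* by 1.68, as did *sna-2* by 1.35. The genes *prp-39*, *snu-66* and *mog-7*, which the table writes under older sequence names and the rule therefore missed, rose by 1.38, 1.06 and 1.02 with DMSO over water (adjusted p = 0.00858, 0.0122 and 0.0173 from limma), and none passed between baicalein and water.

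The 8 genes of the wider list that fell with baicalein against water were *usp-39*, *hel-1*, *spk-1*, *plrg-1*, *cdk-12*, *rbm-25*, *mec-8* and *ptb-1*. *usp-39*, for a protein of the tri-snRNP, had log2 values of 3.19 and 3.08 with baicalein, 5.19 and 5.02 with DMSO, and 3.76 and 4.28 with water. *ncbp-1*, for a subunit of the nuclear cap-binding complex, had values of 3.37 and 3.16 with baicalein, 4.86 and 4.72 with DMSO, and 3.64 and 3.88 with water, and *aly-2*, for an mRNA export adaptor, had values of 6.63 and 6.43 with baicalein, 8.0 and 7.95 with DMSO, and 6.03 and 6.18 with water. Both rose with DMSO over water, by 1.03 and 1.87 (adjusted p = 0.00678 and 0.000445 from limma), and neither passed between baicalein and water. *hel-1*, for the helicase UAP56, had values of 5.83 and 5.43 with baicalein, 6.74 and 6.85 with DMSO, and 6.43 and 6.6 with water. *spk-1*, for the kinase of SR proteins, had values of 4.74 and 4.69 with baicalein, 5.38 and 5.65 with DMSO, and 5.52 and 5.67 with water. Against water *usp-39* fell by 0.88, *hel-1* by 0.88 and *spk-1* by 0.88 with baicalein (adjusted p = 0.0314, 0.0225 and 0.0155 from limma), while *hel-1* and *spk-1* did not pass between DMSO and water. The tissue-specific regulators *mec-8* and *ptb-1* fell with DMSO against water, by 1.54 and 0.62, and *mec-8* was chosen by that very comparison. Their baicalein and DMSO values differed by -0.09 (95% interval -0.60 to 0.42) and -0.16 (95% interval -0.57 to 0.24).

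**Figure D3:**
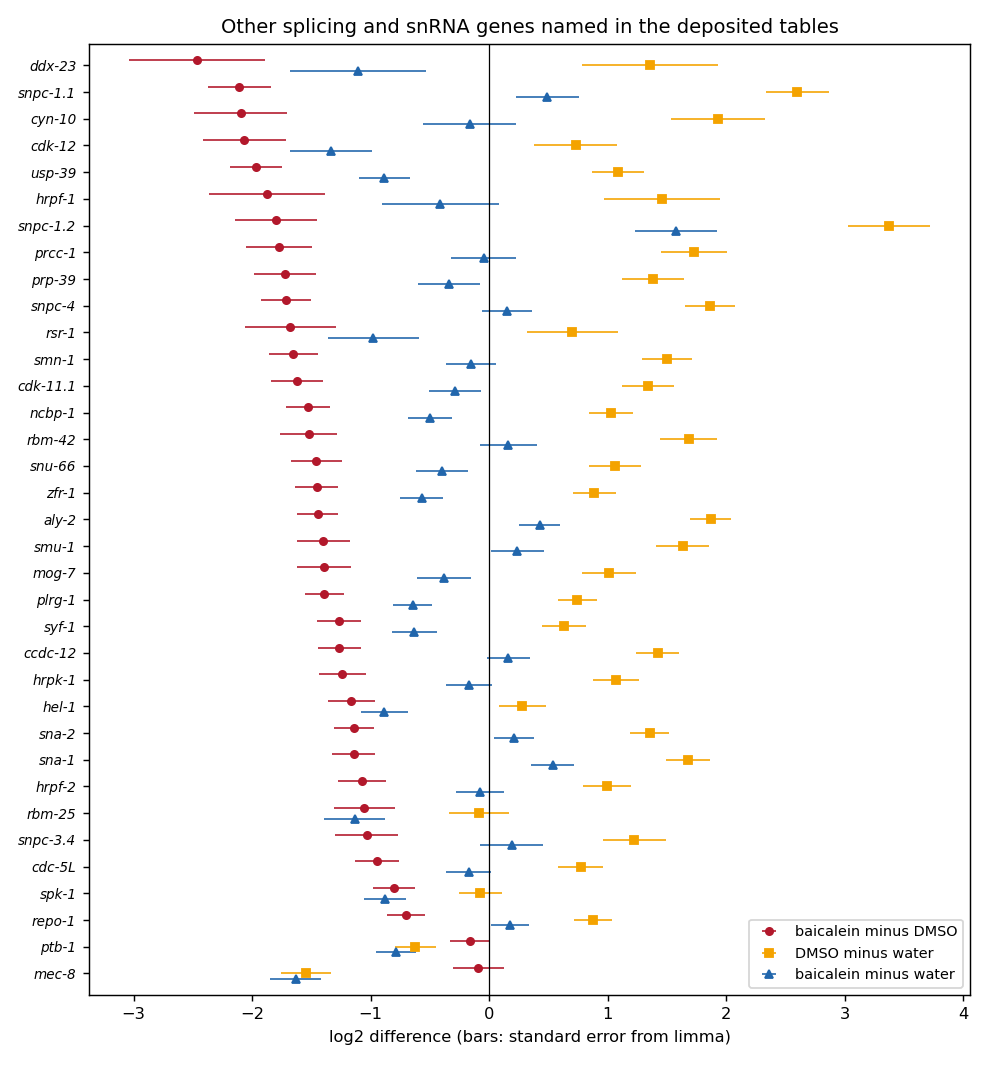
Log2 differences of further genes, the 32 of the wider splicing list and *prp-39*, *snu-66* and *mog-7*, ordered by baicalein minus DMSO (red circles), with DMSO minus water (orange squares), baicalein minus water (blue triangles) and standard errors from limma as bars. Red points lie left of 0 (for 30 of the 32 with quantile normalization applied again or cyclic loess), down to -2.46 for *ddx-23*, and orange points right of 0 except for 4 genes, *mec-8*, *ptb-1*, *rbm-25* and *spk-1* (2 genes with arrays centred on their medians).

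Genes of the germline and oocyte were higher with DMSO and with baicalein than with water, and most were lower with baicalein than with DMSO. All 17 germline and oocyte markers named in the tables were called higher with DMSO than with water (median log2 difference 4.91). All 17 were also called higher with baicalein than with water (median 3.46). Both counts held under each of the scalings run. Over all probe sets, 10.9% and 6.79% were called higher in these comparisons, and 38.6% and 18.2% among the entries of the table of baicalein against DMSO. Between baicalein and DMSO 14 markers were called lower (7.03% of all probe sets and 37.9% of those entries) and 3 did not pass (median -1.84). As these markers were named in tables of genes that passed a threshold, differences were favoured by their choice. Their array medians were 5.64 and 5.57 with baicalein, 7.24 and 7.28 with DMSO, and 2.43 and 2.05 with water, and 4 of them were at or under 1.51 in water. For the 16 splicing genes the array medians were 3.66 and 3.37 with baicalein, 4.70 and 4.82 with DMSO, and 3.75 and 3.85 with water. The values of *rnp-8* lay within the range of the germline markers, whose differences ran from 2.24 to 6.90 between DMSO and water and from 0.79 to 5.56 between baicalein and water. The part of the germline in the splicing genes' values was not tested.

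Markers of sperm and of somatic tissues, again limited to genes named in the tables, are set beside these. Over all probe sets, 1.73% were called higher and 7.03% lower with baicalein than with DMSO. Among the 3619 entries of the table of that comparison, 323 were called higher and 1370 lower. Of 8 sperm genes, 4 were called higher and 1 lower in that comparison, with a median of 1.41. Muscle (8 genes), intestine (6) and neuron (6) markers had medians of 0.81, 0.50 and 0.92 between baicalein and DMSO. None of them was called lower there, and 4, 1 and 3 were called higher. Their medians were -0.38, -1.52 and -2.09 between DMSO and water. In that comparison 3, 4 and 5 were called lower (16.7% of all probe sets), and 1, 1 and 0 higher (10.9%). Those called higher were *tni-3* of muscle (1.48) and *cpr-1* of intestine (0.98). The sperm genes had a median of 2.80 between DMSO and water, with 5 of 8 called higher and 0 lower. The molting larva genes had a median of 0.19 between baicalein and DMSO, with 2 of 8 called lower.

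**Figure D4:**
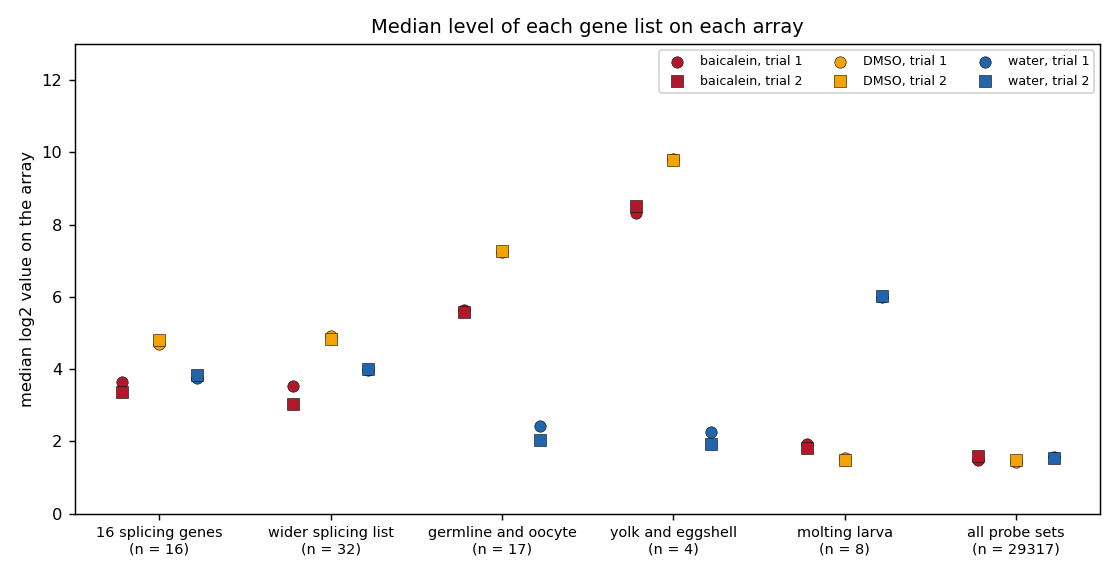
Median log2 value of each gene list on each array, with circles for trial 1 and squares for trial 2 of baicalein (red), DMSO (orange) and water (blue), and the number of probe sets under each list. The splicing genes lie between 3.37 and 4.82 on all arrays, while the germline and oocyte list spans 2.05 to 7.28.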

How the data were processed

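RNA of whole worms was measured on *C. elegans* Gene 1.1 ST arrays from Affymetrix. The deposited log2 values were made by the authors with RMA (background correction, log2 and quantile normalization, per the methods). The upper quartiles of the arrays run from 2.46 to 3.26, so the arrays do not share 1 distribution. The arrays normalized together, the software version and the annotation build are not given in the sources used here. The deposited comparison tables also hold the authors' p-values, ratios, fold changes and sums of squares from Partek. These were not used, and gene names alone were read from the tables (113 entries shifted by commas were realigned). Names were updated through RefSeq (WBcel235), for 13 of 16 members by accession and otherwise by symbol. No coordinates are printed, since the files name no build.

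The 3 groups were fitted together in limma 3.58.1 (R 4.3.3) on all 29317 probe sets, with no filter, 3 residual degrees of freedom and 3.51 from the prior. Benjamini-Hochberg adjustment was made within each comparison. The script was tested on simulated data. Tables were read in Python 3.11.15. Alternatives, with their effect in the closing section, were a variance trend, fits to the compared groups alone, centring, quantile and cyclic loess normalization, a filter on dim probe sets, the trial as a block, the methods' analysis of variance and leaving out each array. The members and gene lists were chosen with earlier results of these data known. Array values were to be given, within each role class, for up to 4 members with the smallest p for baicalein against DMSO and up to 2 for DMSO against water, for the 3 members with the largest p for baicalein against DMSO, and for up to 4 genes of the wider list with the smallest such p (*usp-39*, *plrg-1*, *aly-2* and *ncbp-1*). This took in all 16 members. The other genes of the wider list were picked for mention after their values were seen.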

Additional observations from a re-analysis of the deposited data

How the results depend on the processing

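The trial number was not used to pair arrays in the main fit. Deviations from the group means of arrays with the same number correlated at 0.16 for DMSO and baicalein, but at -0.05 for water and DMSO and -0.07 for water and baicalein. With 2 arrays a group, these values cannot show whether trials with the same number shared a culture. With the trial as a replicate block, the count of members called lower with DMSO against water was 0 (1 without the block), that of members called higher 8 (9 without, *rnp-4* being lost), that of members called higher with baicalein against water 1 (2 without), and that of the wider list called lower with DMSO against water 1 (2 without).

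For baicalein against DMSO, the 10 members called lower numbered 5 with only the arrays of the groups compared, 6 with quantile normalization applied again, 0 with the methods' analysis of variance after adjustment (14 at its unadjusted p) and 0 to 11 with 1 array left out. For the 27 of the wider list these counts were 16, 17, 0 and 0 to 26. The members' median of -1.16 was -0.72 with quantile normalization, -0.74 with cyclic loess, and -1.2 to -1.02 with 1 array left out. For DMSO against water, the 1 member called lower, *sfa-1*, was lost (0 called) with a variance trend, arrays centred on their medians, quantile or cyclic loess normalization, and the range with 1 array left out was 0 to 1. The 9 called higher were 7 with a variance trend (*mog-1* and *prp-21* being lost) and 8 with quantile or cyclic loess normalization (*mog-1* being lost). They were 4 with the adjusted analysis of variance (*mog-1*, *prp-4*, *prp-17*, *prp-21* and *rnp-4* being lost). Some were lost without 1 DMSO or water array, and others were gained without 1 baicalein array. In the wider list, the 2 called lower were 1 with a variance trend, centred arrays, quantile or cyclic loess normalization or the adjusted analysis of variance, and 1 to 2 with 1 array left out, and the 23 called higher were 12 with the adjusted analysis of variance and 13 (without water replicate 1) to 27. The median of 0.81 was 0.92 with centred arrays, 1.00 with quantile normalization and 0.75 to 0.98 with 1 array left out.

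For baicalein against water, the 3 members called lower were 2 to 6 with 1 array left out, most without baicalein replicate 1, 2 with the adjusted analysis of variance (*prp-8* being lost), and the 2 called higher were 1 with only the arrays of the groups compared or the adjusted analysis of variance, and 1 without each array. In the wider list, the 8 called lower were 5 with a variance trend or only the arrays compared, 3 with quantile or cyclic loess normalization, 2 with the adjusted analysis of variance and 1 to 11 with 1 array left out, and the 1 called higher was 6 with quantile normalization, 5 with cyclic loess, 4 at the unadjusted and 0 at the adjusted p of the analysis of variance, and 0 to 2 with 1 array left out. The members' median of -0.25 turned to 0.34 with quantile normalization and 0.078 with cyclic loess, as did *teg-4*, at 0.012 with quantile normalization (adjusted p = 0.974 from limma). The cause of these changes was not tested. Taking 1 probe set a gene changed nothing, as each member gene has 1. The alternatives for baicalein against water by gene were added after the data were seen.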
